A study of Mus musculus with 22 samples.

Results

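Mouse hepatoblastoma chromatin was mapped while YAP1 was supplied and at 14, 33 and 64 days after its withdrawal, and 19351 day 64 intervals were open at all 3 withdrawal times but in no interval of the liver library. They were chosen by 4 conditions. The interval lay on chromosomes 1 to 19 or X, was 100 bp or wider, overlapped by at least 1 bp an interval of days 14 and 33, and overlapped none of the liver list. These regions made up 10.7% of the 180069 day 64 intervals of that width. The rule compares lists and has no replicate, because each condition was 1 Omni-ATAC library, an assay that tags open DNA in nuclei with a transposase.

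YAP1 is a transcriptional coactivator that binds DNA through TEAD factors, and the Hippo kinases restrain it. Hepatoblastoma is a childhood liver tumor in which beta-catenin, the effector of Wnt signaling, is commonly active. In normal liver the same pathway sets the program of hepatocytes around the central vein, with Glul and Axin2 among its best known target genes. Hepatocyte identity also needs HNF4A, FOXA, HNF1 and C/EBP factors, which bind promoters and distant enhancers.

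RNA was measured in other samples: 4 hepatoblastoma tumors on doxycycline (YAP1on), 4 tumors 6 days off doxycycline (day 6), 3 hbHep mice at days 121, 114 and 117, and 3 livers of mice on NTBC (FAH liver). Tumors are labeled as B6N.FVB(Cg) mice with the transgene Tg(CAG-rtTA3)4288Slowe, whose CAG promoter drives rtTA3, while hbHep and FAH liver are both labeled FAH Delta Exon 5. NTBC is a drug that protects animals lacking FAH, the last enzyme of tyrosine breakdown. The 4 tumors of each tumor group carry 1 mouse code. Mouse and treatment therefore cannot be told apart between tumor groups, nor can strain and treatment between tumors and the other groups. The ATAC labels give the treatments Yap On, Yap Off with a day, and WT liver, and the series' design text calls the off samples hb Heps. All RNA came from pieces of tissue, so fewer cells of a type and less RNA per cell cannot be told apart. RNA values are the deposited signal per gene, rescaled between libraries and called abundance. A gene was called where its adjusted p in limma was under 0.05.

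Yap1 RNA followed the tumor labels. Its abundance was 5263, 9763, 7842 and 10748 in the YAP1on tumors and 1248, 1163, 1163 and 1095 at day 6. The groups did not overlap (exact permutation test, two-sided p = 0.0286, the smallest that 4 against 4 allows). The hbHep mice had 937.1, 1135 and 1308, which met the FAH liver range of 1136 to 1356. Fah RNA was 669.3 to 1158 in hbHep, below the 1548 to 1834 of FAH liver, and a labeled deletion of 1 exon need not remove it.

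The regions were narrow. Their median width was 119 bp, with quartiles of 107 and 140 bp and a maximum of 544 bp. The width limit had no gap around it: 684 regions were exactly 100 bp wide and 768 intervals of 99 bp met the other conditions. Merging overlaps left 17866 stretches covering 2450 kb of mm10.

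Most regions lay beside liver intervals and not far from them. The median gap to the nearest liver interval was 112 bp, 63.1% of regions had one within 200 bp and 84.6% had one within 1 kb. The liver condition likewise had no gap around it: 1650 regions lay 10 bp or less from a liver interval, and 2179 intervals met the other conditions but overlapped the liver list by 10 bases or fewer. The remaining 2989 regions lay over 1 kb from any liver interval. The liver list was also the shortest of the 4 lists that the rule used, covering 36.57 Mb against 70.68, 57.4 and 55.59 Mb at days 14, 33 and 64. Absence from the liver list therefore cannot be told apart from a lower depth of that library.

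A large share of the regions was already in the list of the tumor on YAP1, which the rule did not use. Of the 19351 regions, 8628 overlapped a YapOn interval, or 44.6% (95% Wilson interval 43.9 to 45.3, counting error only). For intervals open at days 14, 33 and 64 and in liver the share was 67.6% of 148659, and for 2946 intervals found at day 64 alone it was 6.62%. The label of regions open after YAP1 loss therefore describes when they were open, and not that they were closed before. The YapOn list is of another kind than the others: its intervals had a median width of 21 bp and only 273 reached 100 bp. Wider regions met it more often, with 42.5% of regions under 120 bp and 52.0% of those of 200 bp or more, but liver-shared intervals of the same widths stood at 63.9% and 79.7%. Regions over 1 kb from a liver interval had a share of 44.6% as well.

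The regions lay away from gene starts. Within 1 kb of a RefSeq start were 7.38% of regions, 24.8% of liver-shared intervals and 2.14% of intervals of day 64 alone. The median distances were 19895, 11647 and 33655 bp, an order that held along most of the range in the plot of distances. Of the regions, 66.7% lay inside the span of a gene, against 66.6% of liver-shared intervals; exons and introns could not be separated with the annotation used here. Regions over 1 kb from a liver interval were rarer near starts, at 1.51%. By chromosome, regions made up 9.17% (chromosome 17) to 13.7% (chromosome X) of day 64 intervals. The table of starts held no gene of chromosome 18, so 598 regions there got no gene.

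**Figure D1:**
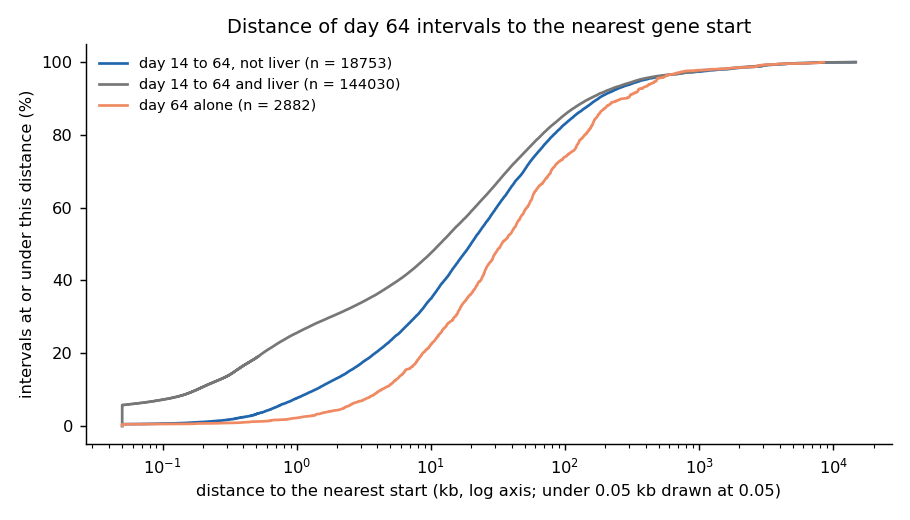
Distance in kb (log axis) of day 64 intervals to the nearest gene start, as the cumulative percent of each class. Regions open at days 14, 33 and 64 but not in liver (blue) lie between the liver-shared intervals (grey) and those of day 64 alone (orange), with medians of 19895, 11647 and 33655 bp.

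A few regions did reach into the 250 bases before a tested gene's most upstream start, and their sequences show what such a region covers there. Among the genes with at least 60 such bases, the 5 with the largest rise and the 5 with the largest fall in hbHep against YAP1on tumors are printed, from RefSeq's GRCm38.p6 promoter table. They were chosen after their RNA values were seen, so their RNA is described without a test. Each is the gene's longest stretch, written 5′ to 3′ on the gene's strand and cut to the 250 bases before the start. Parts of a region beyond those bases are not printed: 66 of 144 bp are shown at Slc7a11 and 163 of 288 bp at Sult2b1. Capitals mark matches, within the printed bases only, to any of 10 motifs named further on. The 5 genes that were higher in hbHep come first, then the 5 that were lower.
Slc7a11 (chr3:50443798-50443863, minus strand): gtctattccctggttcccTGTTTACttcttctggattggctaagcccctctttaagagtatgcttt
Gsta1 (chr9:78230419-78230513, plus strand): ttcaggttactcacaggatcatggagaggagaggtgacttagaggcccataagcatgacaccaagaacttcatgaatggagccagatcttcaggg
Hmgcll1 (chr9:76014863-76014976, plus strand): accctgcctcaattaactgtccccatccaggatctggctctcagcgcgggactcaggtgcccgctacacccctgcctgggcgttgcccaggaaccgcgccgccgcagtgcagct
Gm44180 (chr6:115770991-115771066, minus strand): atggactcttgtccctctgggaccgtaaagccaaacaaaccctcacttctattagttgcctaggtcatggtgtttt
Cyp2c55 (chr19:39006794-39006946, plus strand): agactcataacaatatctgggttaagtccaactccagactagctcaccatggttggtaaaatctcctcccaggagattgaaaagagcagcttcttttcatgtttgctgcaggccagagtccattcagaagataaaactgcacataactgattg
Vgll3 (chr16:65814939-65815033, plus strand): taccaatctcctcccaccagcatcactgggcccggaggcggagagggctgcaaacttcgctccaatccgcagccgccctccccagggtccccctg
Kcnh7 (chr2:63184322-63184433, minus strand): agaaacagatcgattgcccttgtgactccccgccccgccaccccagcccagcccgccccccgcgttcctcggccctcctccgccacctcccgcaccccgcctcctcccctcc
Tmem130 (chr5:144761645-144761757, minus strand): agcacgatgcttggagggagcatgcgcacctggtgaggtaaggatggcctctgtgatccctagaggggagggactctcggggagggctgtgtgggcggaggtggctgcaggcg
Klc3 (chr7:19404143-19404261, minus strand): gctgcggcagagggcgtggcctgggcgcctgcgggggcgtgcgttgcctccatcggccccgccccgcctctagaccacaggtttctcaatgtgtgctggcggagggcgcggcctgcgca
Sult2b1 (chr7:45759700-45759862, minus strand): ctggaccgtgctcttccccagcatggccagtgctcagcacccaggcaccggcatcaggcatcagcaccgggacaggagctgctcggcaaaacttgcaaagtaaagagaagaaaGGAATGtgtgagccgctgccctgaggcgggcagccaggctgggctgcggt

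The 5 stretches of genes that were higher in hbHep and the 5 of genes that were lower differed in their YapOn overlap. None of the regions at Slc7a11, Gsta1, Hmgcll1, Gm44180 and Cyp2c55 overlapped a YapOn interval, and those at Vgll3, Kcnh7, Klc3 and Sult2b1 did. Tmem130 had 2 such stretches, of which the printed one did not overlap YapOn and the other did. Over all genes with such a stretch, at least 1 region in it overlapped YapOn for 10 of the 24 genes called higher in hbHep than in YAP1on tumors (41.7%), 16 of the 21 called lower (76.2%) and 17 of the 25 not called (68.0%). Base composition moved with this contrast among the printed stretches. GC content was 42.5 to 48.4% in 4 of the first 5, with 66.7% at Hmgcll1, and 62.6 to 74.1% in the other 5. The part of GC content in the result was not tested.

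Slc7a11 encodes the cystine importer that feeds glutathione synthesis. Its abundance was 681.9, 12780 and 1193 in the hbHep mice, 112.6 to 148.2 in YAP1on tumors, 84.89 to 102.8 at day 6 and 71.8 to 81.5 in FAH liver. Every hbHep mouse was above every other sample, and the second mouse was far above the rest. Gsta1, a glutathione transferase whose reads may be shared with near copies, was at 1204, 13674 and 2149 in hbHep and 118.7 to 516.6 in YAP1on tumors. It fell to 6.708 to 8.003 at day 6 and stood at 4955 to 9367 in FAH liver, so only the second hbHep mouse lay above the livers.

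Cyp2c55, a cytochrome P450 whose reads may likewise be shared within its family, was at 2377, 1564 and 1920 in hbHep against 127.7 to 276.2 in YAP1on tumors and 98.06 to 145.6 in FAH liver. Day 6 tumors lay in between, at 340.5 to 544.9. Hmgcll1, a relative of the ketone body enzyme HMG-CoA lyase, was at 99.76, 82.66 and 86.63 in hbHep and below 20 in every other sample. Gm44180 is a predicted gene with no role given here, and its level was under 20 everywhere.

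The genes that fell include Vgll3, a vestigial-like cofactor that binds TEAD factors. Its abundance was 341.2, 733.8, 550.8 and 524.5 in YAP1on tumors, 140.7 to 294.3 at day 6, 6.235 to 16.85 in hbHep and 1.1 to 11.85 in the FAH livers. Kcnh7, a potassium channel gene, followed the same order, from 518.6 to 875.6 in YAP1on tumors to 19.66 to 23.41 in hbHep. Sult2b1, a sulfotransferase of cholesterol and other sterols, stood at 46.68 to 103.3 in YAP1on tumors and 6.941 to 9.842 in hbHep. In these 3 genes the tumor groups did not overlap each other, and YAP1on tumors did not overlap hbHep or FAH liver. Tmem130 and Klc3, a kinesin light chain, stood at 122.6 to 290.4 and 176.3 to 291.3 in YAP1on tumors and at 7.055 to 22.17 and 24.29 to 43.45 in hbHep.

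Motif letters were searched on both strands in the promoter windows of 300 bases (250 before and 50 after the start). The motifs were TCF/LEF (CTTTGAT), HNF4A (CAAAGTCCA), HNF1, FOXA (TGTTTAC), CEBP (TTGCNNAA), NFI, TEAD (CATTCC), AP-1 (TGANTCA), E-box (CACGTG) and NRF2 (TGACNNNGC). AP-1 and NRF2 letters can overlap in the same place. HNF4A letters were in 6 of the 269 windows that a region met (2.23%), and in 0.478% of all 32619 windows. FOXA letters were in 5.95% against 3.67%, TEAD letters in 16.7% against 14.6%, AP-1 letters in 8.92% against 7.85% and TCF/LEF letters in 3.35% against 3.76%. CEBP letters were in 11.5% against 10.9%, E-box letters in 7.81% against 7.2% and NRF2 letters in 11.9% against 12.4%, while HNF1 and NFI letters were in none of the 269 and in 0.0613% and 0.0368% of all. In the 165 of those windows that met no liver-shared interval, TCF/LEF, TEAD, E-box and NRF2 letters were rarer than over all windows. They were in 2.42%, 13.9%, 5.45% and 11.5% of these windows. FOXA letters were in 7.27%, CEBP letters in 12.7%, AP-1 letters in 9.09% and HNF4A letters in 2.42%, or 4 windows. In the 11202 windows that met only a liver-shared interval, HNF4A, FOXA, CEBP and AP-1 letters were in 0.464%, 2.92%, 8.76% and 4.76%. There, TCF/LEF, TEAD, E-box and NRF2 letters were in 2.52%, 11.9%, 9.9% and 14.9%, so TEAD letters were rarer there than in the 165. The windows differed in base composition as well, with a mean GC content of 55.6% where a region was met, 53.9% over all and 61.5% where only a liver-shared interval was met. The motifs were chosen with these data in view, windows of 1 gene can overlap, and a match is no evidence of binding.

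Genes near the regions were assigned by the nearest start within 50 kb, which placed 68.2% of regions (13198) at 4997 genes, 29% of the 17238 genes with a start. Of these, 4649 passed the filter on low values (abundance of at least 10 in at least 3 samples), which was 36.7% of the tested genes with a start. RNA was measured without regard to the rule, but the filter keeps genes that are high in any group. The start table held only 70.5% of the 17953 tested genes, and a region can act on a gene other than its nearest.

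Compared with YAP1on tumors, genes near the regions were more often higher in hbHep than lower. Of the 4649 genes, 1755 were called higher (37.8%) and 1017 lower (21.9%), against 28.8% and 26.3% of all 17953 tested genes and 29.7% and 26.4% of those with a start. At day 6 after withdrawal, 986 were called higher than in YAP1on tumors (21.2%) and 513 lower (11.0%), against 12.8% and 10.8% of all. The scaling matters here. Under quantile normalization the genes near regions split into 32.4% higher and 28.6% lower for hbHep, against 27.6% and 28.3% of all, and into 19.9% and 15.9% at day 6, against 13.7% and 13.2%. The 2 comparisons share the YAP1on tumors.

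Compared with FAH liver, genes near regions were somewhat more often called in both directions in hbHep, and more often lower in YAP1on tumors. In hbHep 1042 were called higher (22.4%) and 946 lower (20.3%), against 19.9% and 17.1% of all tested genes. In YAP1on tumors 1372 were higher (29.5%) and 1907 lower (41.0%), against 34.4% and 33.5% of all. Under quantile normalization that excess of lower genes in YAP1on tumors was small, at 34.5% higher and 34.7% lower against 31.9% and 33.1% of all, while in hbHep 22.4% were higher and 16.3% lower than in FAH liver, against 17.1% and 17.3%. Genes nearest to a region over 1 kb from any liver interval (970 tested) were called higher in hbHep than in FAH liver in 28.1% of cases and lower in 15.3%. Genes with a start within 1 kb of a region (1143 tested) were near the shares of all nearby genes, at 22.4% and 21.9%.

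Shares called higher in hbHep climbed with the number of regions at a gene. Among genes with 1 region, 32.2% of 2111 were higher in hbHep than in YAP1on tumors; with 5 to 9 regions it was 49.3% of 542, and with 20 or more it was 80% of 25. Over the same groups, the share higher at day 6 was 15.7%, 33.2% and 48.0%, and the share lower in YAP1on tumors than in FAH liver was 37.5%, 47.0% and 64%. The share higher in hbHep than in FAH liver was 21.3%, 26.0% and 44.0%. The plot of calls by number of regions shows all 6 groups. For the 25 genes with 20 or more regions, quantile normalization gave 52.0% higher in hbHep than YAP1on, 36.0% lower in YAP1on than FAH liver and 60% higher in hbHep than FAH liver.

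**Figure D2:**
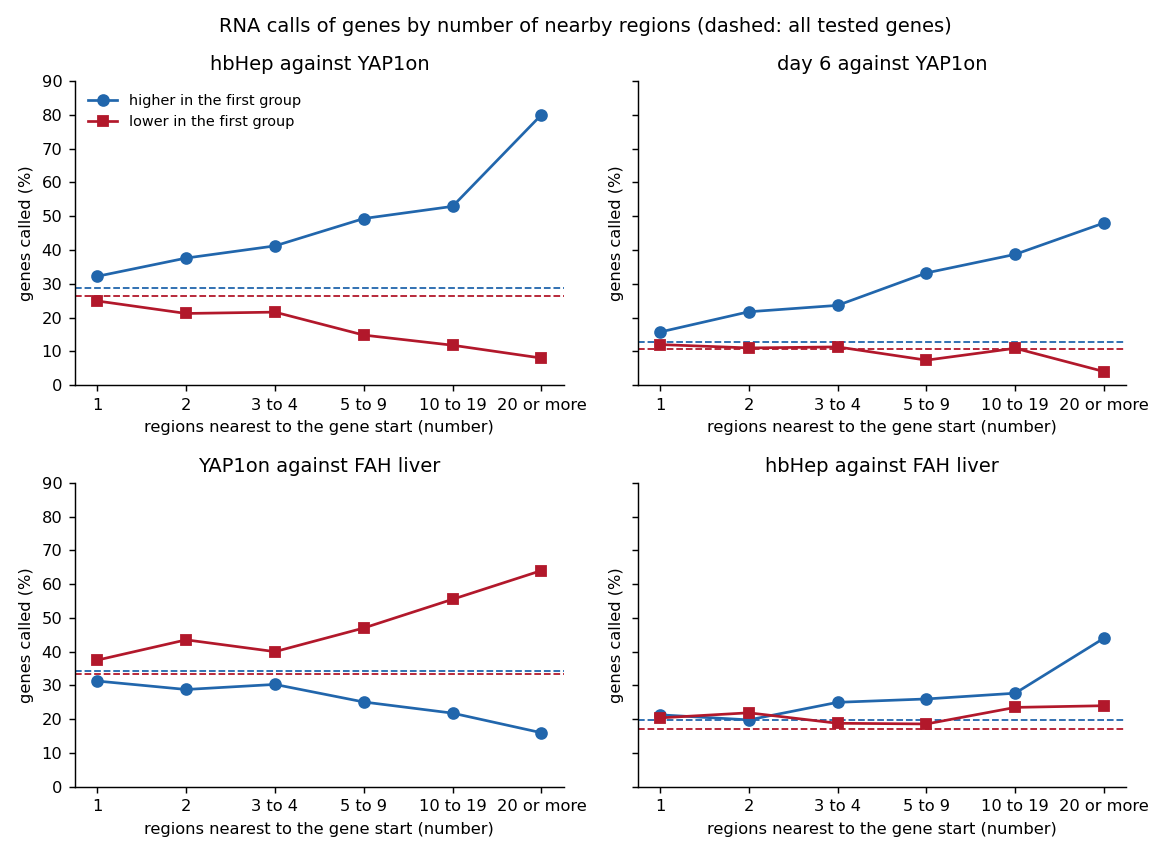
Percent of tested genes called higher (blue) or lower (red) in the first group of each comparison, by the number of regions nearest to the gene's start; dashed lines give all tested genes. The share higher in hbHep than in YAP1on tumors runs from 32.2% with 1 region to 80% with 20 or more (25 genes).

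Much of that gradient was shared with liver intervals. Among genes with 20 or more liver-shared intervals (1270 tested), 46.2% were higher in hbHep than in YAP1on tumors and 35.6% were higher at day 6, against 22.8% and 6.74% of genes with 1. The regions were then set against the total at a gene, among genes with 20 or more day 64 intervals. As the regions' part of that total went from 0% (205 genes) to 30% or more (91 genes), the share higher in hbHep than in YAP1on tumors went only from 47.3% to 53.8%, and that at day 6 from 34.6% to 35.2%. The share higher in hbHep than in FAH liver moved further, through 14.6%, 20.1%, 25.7%, 26.4% and 41.8% over the 5 steps, and the share lower went from 36.6% to 15.4%. These groupings, and those by YapOn overlap, were made after the data were seen and carry no test.

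Whether a gene's regions were already in the YapOn list ordered its RNA calls. Among the 686 tested genes with 5 or more regions, 175 had at most 20% of them in the YapOn list, and 68.0% of these genes were higher in hbHep than in YAP1on tumors and 6.29% lower. Where over 80% of regions were in the list (62 genes), 30.6% were higher and 22.6% lower. At day 6 the shares higher were 54.9% and 17.7%. Under quantile normalization the shares higher in hbHep were 60% and 24.2%, and the shares lower were 9.14% and 41.9%, so the last group then held more lower than higher genes. Liver-shared intervals gave the same order: with 5 or more of them, 58.0% of 88 genes at 20% or less and 28.5% of 1771 genes at over 80% were higher in hbHep. Against FAH liver the order for hbHep was the other way, with 21.7% of the first group of genes near regions higher and 32.3% of the last, but under quantile normalization these were 31.4% and 32.3%.

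**Figure D3:**
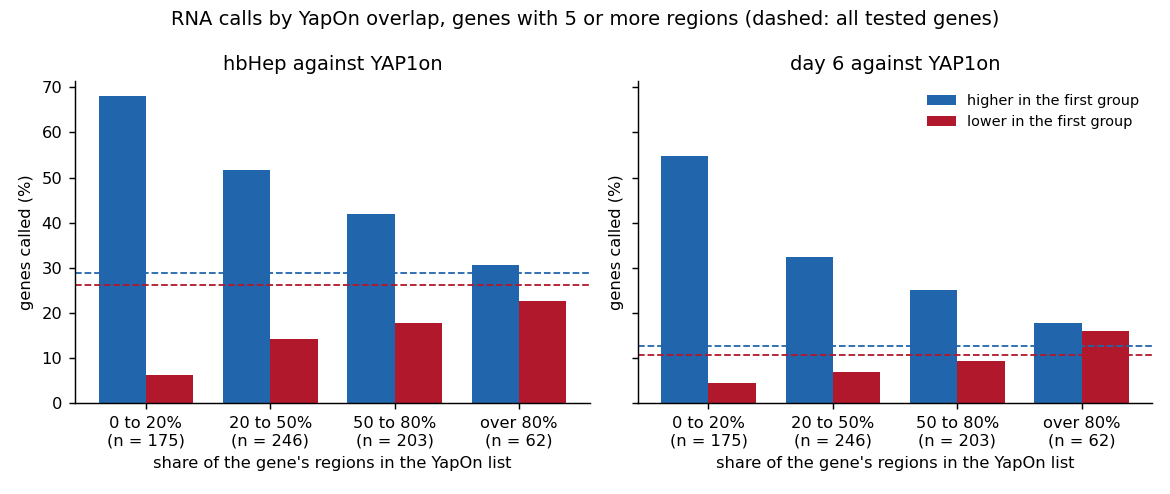
Percent of genes with 5 or more regions called higher (blue) or lower (red) in hbHep (left) or at day 6 (right) than in YAP1on tumors, by the share of the gene's regions in the YapOn list; dashed lines give all tested genes. The share higher in hbHep goes from 68.0% of 175 genes to 30.6% of 62 genes.

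The 10 genes with the most regions were Plpp3, Slc16a10, Slco1b2, Gsta3, Slc1a2, Sord, Il1r1, Aqp9, Axin2 and Rnf43, with 55 down to 34 regions each. Regions made up 31.0% of the 171 day 64 intervals at Slc16a10 and 37.4% of the 147 at Plpp3. The genes fell into those whose regions were nearly all outside the YapOn list and those with many inside it. Slc16a10 had 1 region in the list, Slc1a2 had 1 of 41, Slco1b2 had 2 of 52, and Sord and Aqp9 had 3 each of 40 and 38. Axin2 had 26 of 36, Gsta3 had 31 of 47, Plpp3 had 25 of 55, Il1r1 had 20 of 38 and Rnf43 had 17 of 34.

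**Figure D4:**
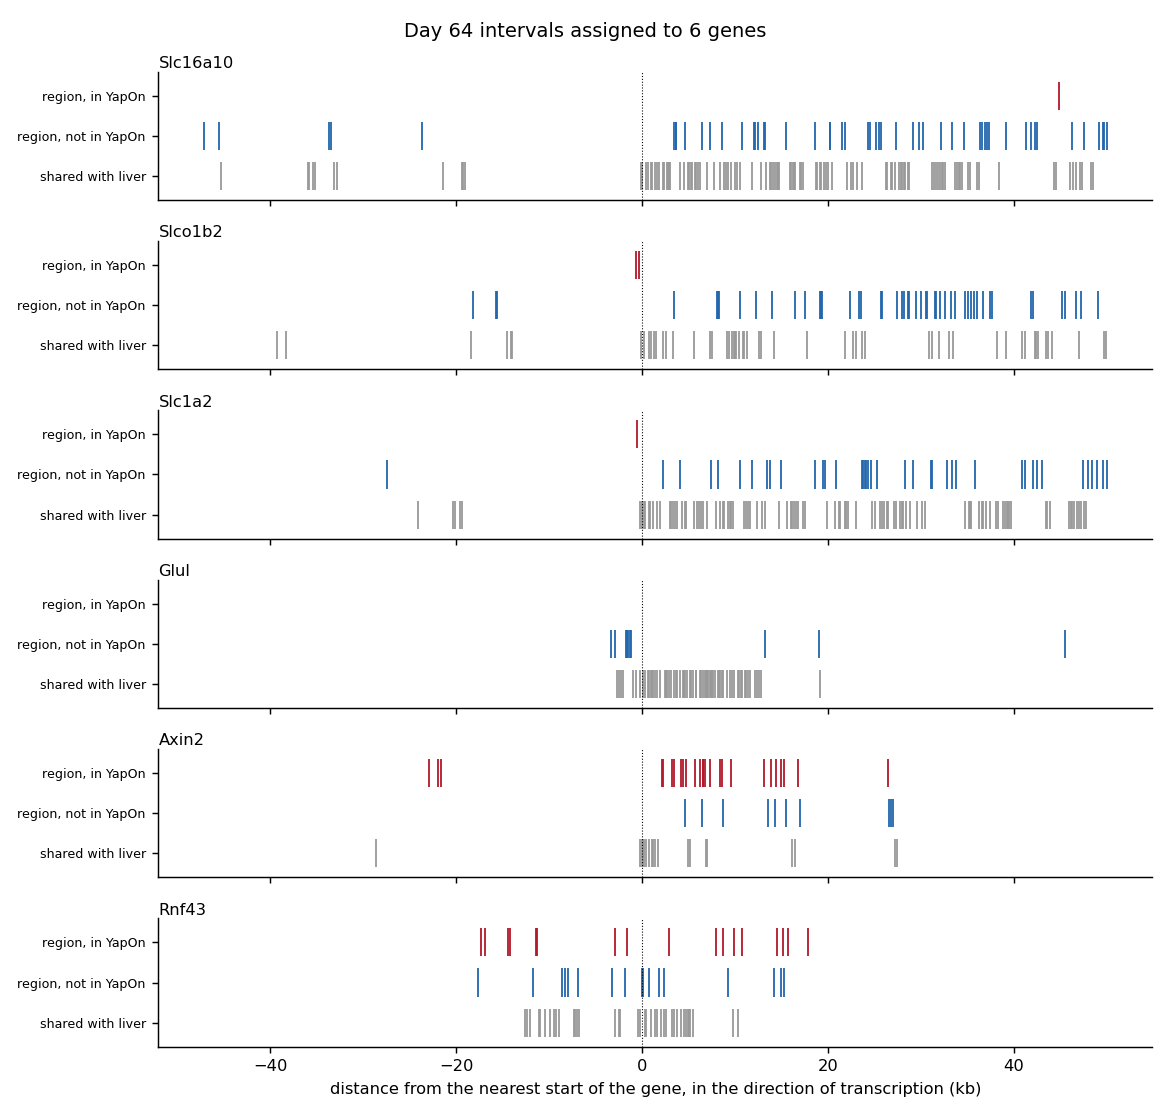
Day 64 intervals assigned to 6 genes, by distance from the nearest start of the gene in the direction of transcription (kb): intervals shared with liver (grey), regions not in the YapOn list (blue) and regions in it (red). Slc16a10, Slco1b2, Slc1a2 and Glul have 1, 2, 1 and 0 regions in the list, while Axin2 has 26 of 36 and Rnf43 17 of 34.

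Slc16a10, a transporter of aromatic amino acids, had its 53 regions at chr10:40092133-40189494. Its abundance was 1173, 1118, 1454 and 1424 in YAP1on tumors, 5697, 5412, 4488 and 5068 at day 6, 7547, 3524 and 7594 in hbHep and 2299, 1969 and 2504 in FAH liver. YAP1on tumors were below every other sample, and day 6 and hbHep overlapped each other above FAH liver. It rose by 2.00 ± 0.20 (log2, SE) at day 6 (adjusted p = 3.9e-06) and was 1.38 ± 0.23 higher in hbHep than in FAH liver (adjusted p = 0.000294), both by limma.

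Slc1a2 encodes a glutamate transporter that in liver marks the hepatocytes next to the central vein. Its 41 regions lay at chr2:102678994-102756505. Abundance was 641.2, 267.3, 886.3 and 850.3 in YAP1on tumors, 1607, 2897, 2176 and 2427 at day 6, 9765, 6885 and 9311 in hbHep and 582.1, 563.2 and 588.2 in FAH liver. Day 6 lay above both YAP1on tumors and FAH liver with no overlap, and hbHep lay above day 6. The difference of hbHep from FAH liver was 3.89 ± 0.34 on the log2 scale (limma, adjusted p = 6.85e-07), while YAP1on tumors differed from FAH liver by 0.05 ± 0.32 (adjusted p = 0.89).

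Slco1b2, an uptake transporter of bile acids and other organic anions, had 52 regions at chr6:141611248-141678672. Abundance was 6590, 6001, 7981 and 5647 in YAP1on tumors, 26191, 26976, 21366 and 27294 at day 6, 59808, 27411 and 46385 in hbHep and 29782, 20018 and 19751 in FAH liver. The rise over YAP1on tumors was 1.96 ± 0.22 at day 6 and 2.70 ± 0.24 in hbHep (limma, adjusted p = 1.23e-05 and 2.84e-07). The hbHep and FAH liver ranges overlapped, and their difference of 0.90 ± 0.26 (adjusted p = 0.0136) lost its call without the first hbHep mouse (0.65), without the third FAH liver (0.79) and in a fit of those groups alone.

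Sord, which turns sorbitol into fructose, and Aqp9, the hepatocyte channel for glycerol, behaved alike against the tumors. Sord was at 11749 to 15568 in YAP1on tumors, 25817 to 31897 at day 6, 33914 to 48876 in hbHep and 35568 to 50983 in the FAH livers. Aqp9 was at 775.3 to 1200, 1871 to 2237, 2542 to 3842 and 2003 to 2836 in the same order. Both genes rose at day 6, by 1.15 ± 0.18 and 1.07 ± 0.16 (limma, adjusted p = 0.000226 and 0.000125). For Sord, hbHep and FAH liver overlapped and differed by 0.05 ± 0.21 (adjusted p = 0.882); for Aqp9 the difference of 0.48 ± 0.18 (adjusted p = 0.0494) lost its call in 16 alternative fits (adjusted p of 0.0553 to 0.187).

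Axin2 and Rnf43 are Wnt target genes that also restrain the pathway, Axin2 as a scaffold of beta-catenin breakdown and Rnf43 as a ubiquitin ligase for Wnt receptors. The 36 regions of Axin2 lay at chr11:108897331-108947454 and the 34 of Rnf43 at chr11:87678206-87715212. Axin2 was at 503.9, 610.1, 587.2 and 647.2 in YAP1on tumors, 807.9, 688.9, 702.6 and 718.7 at day 6, 963.7, 1222 and 1231 in hbHep and 79.75, 82.55 and 92.34 in FAH liver. All tumors and hbHep mice were thus above every FAH liver. The difference from FAH liver was 2.77 ± 0.12 for YAP1on tumors and 3.72 ± 0.13 for hbHep on the log2 scale (limma, adjusted p = 1.14e-10 and 1.04e-10). Rnf43 was at 1549 to 2008, 2156 to 2468, 1716 to 3402 and 548 to 832 in the same order of groups, again with no overlap between FAH liver and the others.

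Il1r1, the interleukin 1 receptor, went down with YAP1 withdrawal. Its abundance was 6426, 5493, 6036 and 5904 in YAP1on tumors, 3464, 3027, 3076 and 2955 at day 6, 4332, 3202 and 4616 in hbHep and 1486, 1672 and 1179 in FAH liver. The YAP1on tumors were above all other samples and FAH liver below all. The fall at day 6 was by 0.93 ± 0.13 on the log2 scale (limma, adjusted p = 0.000108). Its 38 regions lay at chr1:40188287-40294080.

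Plpp3, a lipid phosphate phosphatase, and Gsta3, a glutathione transferase with near copies, each had a difference that turned sign under quantile normalization. Plpp3 was at 3460 to 6127 in YAP1on tumors, 6060 to 7439 at day 6, 5739 to 9200 in hbHep and 6175 to 7597 in the FAH livers. Its difference of 0.57 ± 0.20 between hbHep and YAP1on tumors (limma, adjusted p = 0.0237) became -0.03 under quantile normalization. Gsta3 was at 16236 to 22612, 24786 to 31193, 52099 to 66120 and 67992 to 99397 in the same order, with no overlap between any of the groups. It was 1.60 ± 0.21 higher in hbHep than in YAP1on tumors (adjusted p = 1.21e-05), and its difference from FAH liver of -0.36 ± 0.22 became 0.53 under quantile normalization.

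**Figure D5:**
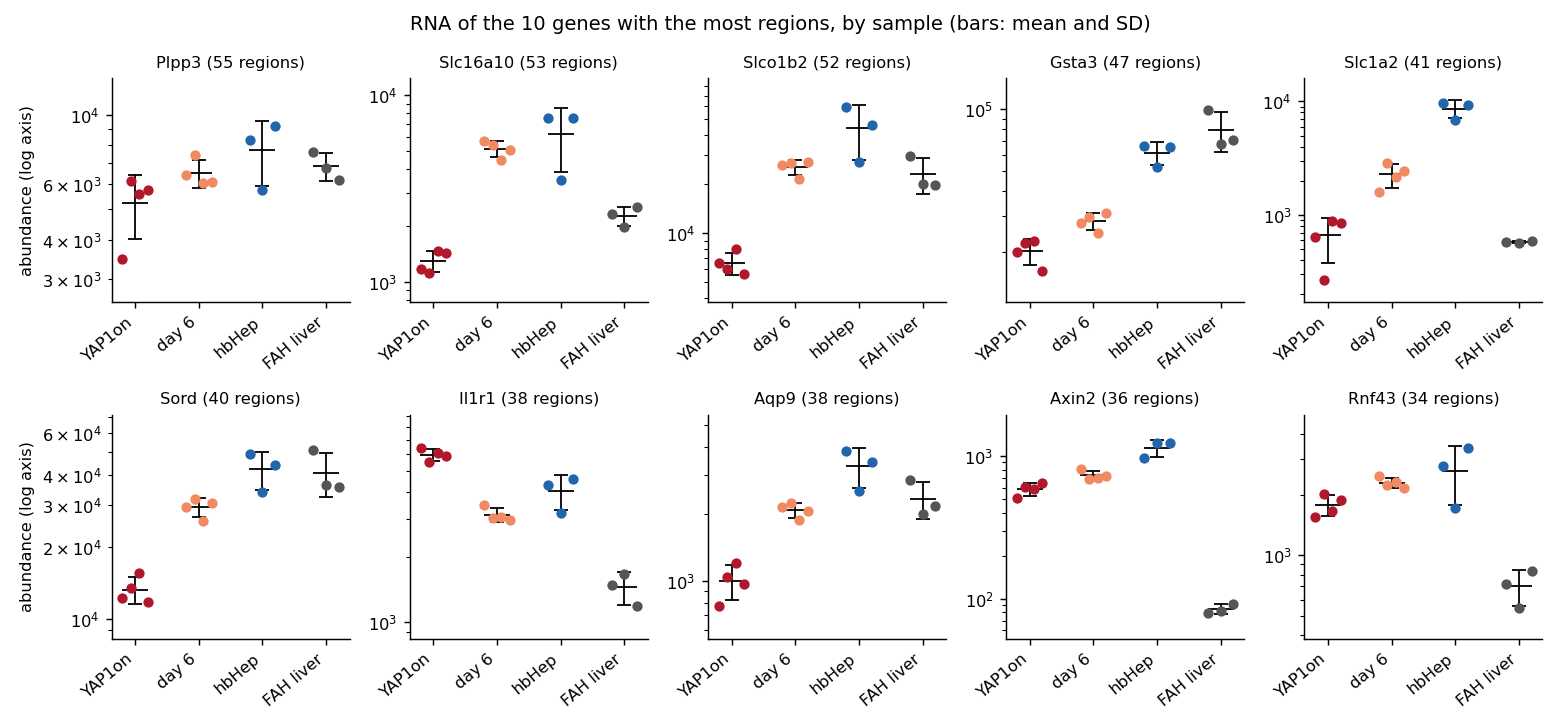
RNA abundance (log axis) of the 10 genes with the most regions in each sample of YAP1on tumors, day 6 tumors, hbHep and FAH liver; points are samples, bars the mean and SD. YAP1on tumors lie below all other samples for Slc16a10, Slco1b2, Gsta3, Sord and Aqp9, and FAH liver lies below all others for Axin2, Rnf43 and Il1r1.

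A count by nearest start misses genes absent from the start table and long genes with distant regions. By the nearest gene span within 50 kb, Adk had 108 regions, Slc1a2 had 106, Slc16a10 had 88, Plpp3 had 86 and Pid1 had 77. That count holds regions inside the span and regions beside it. Adk, Pid1 and Gulo are named here after their values were seen. Adk, adenosine kinase, was at 3344 to 4742 in YAP1on tumors and 6403 to 7363 at day 6, without overlap. It was at 4871 to 6190 in hbHep, below day 6, and at 6158 to 8681 in the FAH livers. Its differences of hbHep from YAP1on tumors and of YAP1on tumors from FAH liver turned sign under quantile normalization, to -0.06 and 0.12. Pid1, an adaptor of receptor and insulin signaling, was at 1178 to 1501 in YAP1on tumors, 1757 to 1991 at day 6, 2444 to 3675 in hbHep and 2156 to 2300 in the FAH livers. Gulo, the last enzyme of vitamin C synthesis in rodents, had 44 regions by the same count. It was at 6414 to 10908 in YAP1on tumors, 26901 to 33948 at day 6, 47442 to 82881 in hbHep and 9201 to 12676 in the FAH livers, and was 2.65 ± 0.24 higher in hbHep than in FAH liver (limma, adjusted p = 1.02e-06).

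Of all genes with a start 29% carried regions, and of the tested ones 36.7%. All 12 Wnt target genes on the list that had a start carried regions, 140 in total. Of these 12 tested genes, 11 were called higher and 0 lower in hbHep than in FAH liver, and 11 higher and 0 lower than in YAP1on tumors. Of all tested genes, 19.9% and 28.8% were higher in these comparisons and 17.1% and 26.3% lower. Over the whole list of 20, with those lacking a start, 17 were higher and 2 lower in hbHep than in YAP1on tumors. Tnfrsf19 had 16 regions and was the one not called against YAP1on tumors, at 496.8 to 737.9 there and 320.8 to 722.2 in hbHep. Glul, glutamine synthetase of the hepatocytes around the central vein, had 10 regions, none of them in the YapOn list, at chr1:153896563-153945522. Its abundance was 4517, 2092, 6160 and 5585 in YAP1on tumors, 13896, 21467, 16474 and 17851 at day 6, 79300, 39480 and 72278 in hbHep and 5879, 4288 and 4530 in FAH liver. Day 6 was above YAP1on tumors and FAH liver, and hbHep above day 6, with no overlap; the rise at day 6 was 2.02 ± 0.30 on the log2 scale (limma, adjusted p = 0.000141). The gene of beta-catenin itself, Ctnnb1, carried 17 regions, of which 8 lay over 1 kb from a liver interval and 9 were in the YapOn list. Its RNA was 4398 to 4981 in hbHep, between 2419 to 2776 in FAH liver and 8673 to 14181 in all tumors.

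Hepatocyte genes carried regions in 15 of 23 with a start, against 29% of all genes with a start and 36.7% of the tested ones. They held 74 regions in all. Of these 15 genes, 8 were called higher and 3 lower in hbHep than in YAP1on tumors, and 0 higher and 9 lower than in FAH liver. Over all tested genes the shares were 28.8% and 26.3%, and 19.9% and 17.1%. At day 6, 8 were higher and 0 lower than in YAP1on tumors, against 12.8% and 10.8% of all. Over the whole list of 28, with those lacking a region, 18 were higher and 0 lower at day 6. In hbHep, 16 of the 28 were higher and 4 lower than in YAP1on tumors, and 0 higher and 17 lower than in FAH liver. These shifts were thus not limited to members with regions. Apob, the structural protein of secreted lipoproteins, had 23 regions and stood at 80532 to 164784 in YAP1on tumors and 249769 to 320495 in hbHep. Ppara, the nuclear receptor of fatty acid oxidation, had 12 and stood at 1079 to 1366 in YAP1on tumors, 1265 to 3015 in hbHep and 2978 to 3318 in the FAH livers. Hnf4a, a master regulator of hepatocyte genes, had 11 and stood at 1280 to 2079, 1869 to 2609 and 2511 to 3325 in those groups. Nr1h4, the bile acid receptor FXR, had 7 and stood at 1335 to 1717, 1746 to 2814 and 5731 to 8107. Nr1h4 was 1.49 ± 0.18 lower in hbHep than in FAH liver on the log2 scale, with no overlap, and for Hnf4a and Ppara the ranges of hbHep and FAH liver overlapped.

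The YAP1 target genes held 30 regions. They carried them in 11 of 19 with a start, against 29% of all genes with a start and 36.7% of the tested ones. Of 10 tested, 8 were called lower and 1 higher in hbHep than in YAP1on tumors, and 9 lower and 1 higher at day 6. Of all tested genes, 26.3% were lower and 28.8% higher in hbHep than in YAP1on tumors, and 10.8% lower and 12.8% higher at day 6. The whole list, with those lacking a region, had 25 tested genes. Of these, 18 were lower and 2 higher in hbHep than in YAP1on tumors, and 19 lower and 3 higher at day 6. Wwc1, a Hippo pathway scaffold induced by YAP1, had 8 regions and stood at 472.8 to 821 in YAP1on tumors and 303.9 to 568.1 in hbHep. Ajuba, a LIM protein that restrains the LATS kinases, had 3 and stood at 1484 to 2503, 563.1 to 799.5 at day 6 and 253.1 to 535.1 in hbHep. Nt5e, the ectoenzyme CD73, was the member that rose, from 465.9 to 886.9 in YAP1on tumors to 2469 to 4386 in hbHep, and none of its 4 regions was in the YapOn list. Crim1, which binds growth factors of the BMP family, had 3 regions and stood at 317 to 627.4 in YAP1on tumors and 323.4 to 386.1 in hbHep.

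Genes of fetal liver and hepatoblastoma had regions in 4 of 13 with a start, against 29% of all such genes and 36.7% of the tested ones. Afp, the fetal albumin relative and tumor marker, had 7 regions and stood at 971.6, 18885 and 3570 in hbHep against 78.82 to 175 in YAP1on tumors and 120.3 to 169.3 in FAH liver. The technical libraries of the third hbHep mouse differed 10.9-fold for Afp, so that mouse's value is uncertain. Gpc3, a heparan sulfate proteoglycan, had 1 region and fell from 2977 to 8073 in YAP1on tumors to 495.8 to 618.5 at day 6. Slc22a3, an organic cation transporter, had 3 and stood at 6280 to 6682 in hbHep against 318 to 622.2 in YAP1on tumors and 188.8 to 214.4 in FAH liver. Hmga2, a chromatin protein of growing fetal cells, had 1 region and stood at 35.86 to 49.23 in hbHep.

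Regions were few at markers of immune cells, against 29% of all genes with a start and 36.7% of the tested ones. Macrophage and Kupffer markers had a region at 1 of 16 genes with a start (Cx3cr1), neutrophil markers at 0 of 13, T, NK and B cell markers at 2 of 12, and red cell precursor genes at 1 of 9. Endothelial markers had one at 5 of 12 and stellate cell, fibroblast and matrix genes at 4 of 13, with 10 and 4 regions. Cholangiocyte and progenitor genes had one at 6 of 15, and AP-1, TEAD and related factors at 8 of 18, among them Jun, Atf3 and Klf6 with 3 each. In the RNA, 17 of 20 tested macrophage markers were higher in YAP1on tumors than in FAH liver and 13 were lower in hbHep than in YAP1on tumors, and 13 of 13 neutrophil markers were higher in YAP1on tumors than in FAH liver. Of all tested genes, 34.4% were higher in YAP1on tumors than in FAH liver and 26.3% were lower in hbHep than in YAP1on tumors. The part of those cells in the calls above was not tested.

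Among genes with a start within 1 kb of a region, the 8 with the largest rise in hbHep over FAH liver were Lrrc14b, Ubd, H2-Q2, Spire2, Tbx1, Kif26b, Akr1b7 and Slc22a3. At Spire2, an actin nucleator of vesicle transport, all 4 day 64 intervals were regions over 1 kb from any liver interval and all 4 were in the YapOn list. Its abundance was 362.3, 276.6 and 319.5 in hbHep, 81.1 to 123.4 in YAP1on tumors, 32.14 to 68.97 at day 6 and 3.158 to 7.831 in FAH liver, with no overlap between any of the groups. Ubd, a ubiquitin-like protein induced by inflammatory cytokines, stood at 201.7 to 663.4 in hbHep, 189.5 to 417.2 in YAP1on tumors and 4.326 to 9.077 in FAH liver. Kif26b, a kinesin family gene, stood at 939.8 to 2820 in hbHep, 142.7 to 245.7 in YAP1on tumors, 106.9 to 165.6 at day 6 and 39.07 to 44.37 in FAH liver. Lrrc14b, for which no role is given here, stood at 77.62 to 126.9 in hbHep, 13.55 to 19.48 at day 6 and under 4 in YAP1on tumors and FAH liver. Tbx1, a T-box factor of the embryo, Akr1b7, an aldose reductase relative, and H2-Q2, a class I gene with near copies, stood at 133.6 to 292.9, 421.4 to 1302 and 124.9 to 159.6 in hbHep and at or below 31.29 in FAH liver. Akr1b7 and H2-Q2 were also above FAH liver in the tumors: Akr1b7 was at 528.7 to 839.5 in YAP1on tumors, 0.05 ± 0.34 apart from hbHep (log2, limma, adjusted p = 0.914), and H2-Q2 was at 408.2 to 635.6 there and lower in hbHep (log2 difference of -1.76 ± 0.44, adjusted p = 0.00316). Tbx1 was at 31.55 to 76.91 in YAP1on tumors and 4.513 to 17 at day 6.

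The 8 with the largest fall in hbHep against FAH liver were Serpina1c, 1810046K07Rik, Dio1, Gm3787, Serpina1b, Tstd1, Hao1 and Spsb4. Hao1, the peroxisomal glycolate oxidase, stood at 414.6 to 1814 in hbHep, 144.6 to 274.1 in YAP1on tumors and 6894 to 9556 in FAH liver. Dio1, which activates thyroid hormone, stood at 11.43 to 96.32 in hbHep, 47.26 to 78.17 in YAP1on tumors, 373.6 to 398.4 at day 6 and 651 to 1005 in FAH liver. Serpina1b and Serpina1c encode alpha-1 antitrypsin copies whose reads cannot be separated with confidence. They stood at 4784 to 24029 and 1119 to 12261 in hbHep against 130985 to 180698 and 98475 to 137487 in FAH liver. YAP1on tumors had 39331 to 68618 and 30765 to 52450, and day 6 tumors 90894 to 113471 and 72706 to 79320. For both genes hbHep was thus below every tumor as well. Tstd1, Spsb4, 1810046K07Rik and Gm3787 stood at 77.4 to 229.1, 25.83 to 204.5, 1.408 to 5.493 and 14.24 to 29.41 in hbHep, each below every FAH liver.

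The 10 widest regions gave a mixed set of nearest tested genes: Gm9958, Cdc42bpa, B3gnt2, Susd1, Tbk1, Slc39a2, Txnrd2, Net1, Akr7a5 and Pglyrp1. The regions listed with B3gnt2 and Tbk1 lay 115801 and 100575 bp from those starts, beyond the 50 kb limit, and the gene spans nearest to them were Gm12057 and Rassf3. The widest, of 544 bp at chr5:90409017-90409560, lay 42020 bp from the start of Gm9958 and outside the YapOn list. Slc39a2, a zinc transporter with 6 regions and none in the YapOn list, was at 899.5 to 1380 in hbHep and 727.3 to 1240 in the FAH livers but at 26.76 to 42.88 in YAP1on tumors and 38.32 to 52.08 at day 6. Net1, a guanine nucleotide exchange factor, had 17 regions, 10 of them over 1 kb from a liver interval. It was at 966.8 to 1069 in hbHep and at 360.6 to 502.9 in FAH liver, 1.21 ± 0.13 apart on the log2 scale (limma, adjusted p = 3.68e-06). Akr7a5, an aldehyde reductase, was at 695 to 1020 in YAP1on tumors, 1219 to 1567 at day 6, 2946 to 4018 in hbHep and 4541 to 6306 in the FAH livers. For Susd1 and Txnrd2 hbHep differed neither from FAH liver nor from YAP1on tumors beyond the threshold.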

How the data were processed

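The authors deposited RNA as a signal per gene, in what appear to be scaled reads per base. The submitters' processing notes name GRCm38.p6, bcl2fastq, sleuth and kallisto 0.45.0. They hold no read counts, so read depth is not given here. Open intervals were deposited as 1 list per library on mm10 (the same notes name BWA, Picard, SAMtools, cutadapt and bcl2fastq); the interval caller is not given in the sources used here, and scores were not used. The technical pairs of the 3 hbHep mice were averaged, leaving 14 RNA samples. After median-of-ratios rescaling, genes were filtered (10 or more in 3 or more samples) and tested on log2(abundance + 1) with limma 3.58.1 (R 4.3.3; lmFit, eBayes with trend, 1 model of 4 groups, Benjamini-Hochberg over all 17953 genes). Fold changes on this scale understate changes of low genes. For tumors the p-values measure the spread between tumors of 1 mouse. Intervals were intersected in Python 3.11.15. Starts, spans and promoter sequences came from RefSeq tables of GRCm38.p6; 35912 of 36555 gene IDs matched a symbol. Named genes were the 10 with most regions, those nearest the 10 widest regions, the 8 largest rises and 8 largest falls in hbHep against FAH liver among genes with a start within 1 kb, the leading list members and 3 label checks. The planned rule for sequences, region centres, could not be followed without a genome. Members and lists were chosen with earlier results of these data known. The fit was tested on simulated data.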

Additional observations from a re-analysis of the deposited data

Results flagged for a closer look

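In groups of 4 tumors, 8 of the 172 gene and group pairs screened had a tumor whose gap to the nearest other exceeded Dixon's 95% critical value. Chance flags about 1 in 20. Of genes near the regions, the lowest YAP1on tumor stood apart for Tnfrsf19 (496.8), Krt23 (52.23) and Pid1 (1178), and the lowest day 6 tumor for Hmga2 (41.24). The highest day 6 tumor stood apart for the macrophage marker Cx3cr1 (1018), the T cell marker Cd3e (129.7), Klc3 (122.1) and Gm44180 (0.7794, a level of almost no signal). Cx3cr1, Cd3e and Klc3 were highest in the same day 6 tumor, the third.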

How the results depend on the processing

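Counts run as higher then lower for hbHep against YAP1on, day 6 against YAP1on, hbHep against FAH liver, and YAP1on against FAH liver. The number of regions fell to 848 with a width of 200 bp or more, 11256 with at least 50% of the width covered at days 14 and 33, 7171 with no liver interval within 200 bp and 2989 with none within 1 kb, and rose to 87652 at 50 bp. The share in the YapOn list was 52.0, 50.6, 42.7 and 39.9% at 200 bp, 50% coverage, 200 bp from liver and 50 bp, and the share within 1 kb of a start 8.73, 8.40, 3.78 and 7.89%, with 1.51% at 1 kb from liver. With 3 regions or more per gene the counts were 681 and 270, 428 and 145, 386 and 286, and 410 and 659. At 200 bp or wider they were 217 and 90, 131 and 46, 131 and 102, and 128 and 205. At 50 bp they were 2969 and 2149, 1461 and 1009, 1808 and 1737, and 2774 and 3403. With no liver interval within 200 bp they were 888 and 439, 517 and 244, 531 and 402, and 641 and 896. With none within 1 kb, chosen after seeing the data, they were 382 and 238, 218 and 138, 273 and 148, and 342 and 354. For starts within 1 kb they were 435 and 251, 228 and 141, 256 and 250, and 321 and 470. With starts within 10 kb the lower counts of the first 2 comparisons fell to 647 and 341 and YAP1on above FAH liver to 881. These alternatives change how many genes are counted. With no liver interval within 1 kb, 970 genes were tested, and 39.4% were higher and 24.5% lower in hbHep than in YAP1on tumors. All tested genes stood at 28.8% and 26.3%. For starts within 1 kb, 1143 genes were tested. For 3 regions or more, the plot of calls by number of regions gives the shares. The other alternatives have no number of tested genes here, so their counts cannot be compared with the shares of all tested genes. Fits of 2 groups alone gave 690 and 575 for hbHep against FAH liver, again without the share of all tested genes, and the cause was not tested.

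Leaving out each sample gave 1574 to 1809 and 918 to 1045, 746 to 1074 and 408 to 565, 888 to 1059 and 656 to 1003, and 1253 to 1395 and 1774 to 1944. With the replicate number as a block, counts were 1674 and 932, 853 and 470, 970 and 842, and 1297 and 1831. The shares of all tested genes called in the block fit and in the fits leaving out a sample are not given here. These counts therefore cannot show whether the differences from all tested genes held. Same-numbered samples correlated at -0.23 to 0.187, so the numbers did not pair them. Quantile normalization turned Plpp3 to 0.61 (YAP1on against FAH liver) and -0.03 (hbHep against YAP1on) and Gsta3 to 0.53 (hbHep against FAH liver). Over all named genes and fits, 12 comparisons turned direction, Dio1 without the second hbHep mouse and the others under quantile normalization. The span assignment, chosen after seeing the data, gave 2134 and 1242 for hbHep against YAP1on, again without a number of tested genes. Limits are 1 ATAC library per condition with unknown depth, 1 mouse per tumor group, and starts for 70.5% of tested genes.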
